A study of Rattus norvegicus with 14 samples.

Results

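The SLC25 genes encode the mitochondrial carrier family, and the 46 members described here are the genes of the rat colon count table whose symbol begins with Slc25a and a number, out of 26319 genes in all. Total RNA was sequenced 72 h after male Wistar rats had received 0.25 ml of 2,4,6-trinitrobenzene sulfonic acid (TNBS, a hapten that provokes colitis) into the colon. The 14 libraries fell into 3 groups: 6 inflamed regions (I) and 6 uninflamed regions (UI), both from the same 6 TNBS-treated animals, numbered 218 to 223, and 2 controls (C) from vehicle-treated animals 216 and 217, sampled from random sections of the distal colon. The sample labels call the controls vehicle-treated, whereas the paper calls them untreated, so it is not settled whether I-C and UI-C include an effect of the vehicle. The labels name no genetic change, and each tissue sample was a whole piece of colon in which all cell types were mixed. The comparisons are abbreviated I-UI, I-C and UI-C.

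Carriers of this family sit, with few exceptions, in the inner mitochondrial membrane and exchange small molecules between the matrix and the cytosol. They bring ADP and phosphate in and take ATP out, move the carboxylates and amino acids of the malate-aspartate shuttle, and supply the matrix with iron, cofactors and glutathione. The colonocyte depends on mitochondrial oxidation of butyrate from the gut bacteria, whose end product, ATP, leaves the matrix through carriers of this family.

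Library totals ran from 6734968 to 13792657 reads in inflamed regions, from 7813797 to 13234808 in uninflamed regions and from 12013023 to 12041314 in controls. Levels are given as CPM, read counts brought to the same library size with TMM factors, which correct for differences in library composition, and they are not divided by gene length, so they compare libraries and not genes. The defining markers of colon epithelium (Epcam, Cdh1, Krt8 and Vil1 among 15 genes) were present in every library, but 14 of the 15 were lower in inflamed than in uninflamed regions, and their summed level was 242 to 5256 CPM in inflamed regions, 4733 to 9002 CPM in uninflamed regions and 4693 to 8697 CPM in controls. The summed level of 12 neutrophil genes was 443 to 2219 CPM in inflamed regions, 29.8 to 72.4 CPM in uninflamed regions and 34.6 to 38.8 CPM in controls, and Elane and Cxcr1 of that list had 0 reads in some libraries of every group. In such bulk tissue, fewer cells of a type and less RNA per cell cannot be told apart.

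Of the 46 members, 45 passed the filter on low counts and entered the fit over 18678 genes. Slc25a22, glutamate carrier 1, did not, with 1 to 8 reads per library. The members together took 0.298% to 0.405% of the reads in inflamed regions, 0.337% to 0.522% in uninflamed regions and 0.461% to 0.564% in controls. Slc25a3 and Slc25a13 took most of these reads. Without them, the share was 0.0768% to 0.140% in inflamed regions, 0.0691% to 0.150% in uninflamed regions and 0.0762% and 0.134% in the controls, and these ranges overlapped. A mean of under 5 CPM over all libraries was found for 13 of the 46.

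In the comparison of inflamed with uninflamed regions, 1 member rose and 5 fell past the threshold, a Benjamini-Hochberg adjusted p under 0.05 over all genes and a change of at least 2-fold in edgeR's quasi-likelihood test. The riser was Slc25a37, mitoferrin 1, which brings iron into the matrix. The members that fell were Slc25a10, the dicarboxylate carrier, Slc25a5, an ADP/ATP carrier, Slc25a29, a carrier of basic amino acids, Slc25a34, whose substrate is not established, and Slc25a23, a calcium-regulated carrier of ATP-Mg and phosphate. Among all genes tested, 6.15% were higher and 6.95% were lower by the same rule, against 2.22% and 11.1% of the members. The median log2 fold change was -0.14 over the members and 0.04 over all genes. A further 8 members fell and 1 rose at an adjusted p under 0.05 with changes of less than 2-fold, and 30 did not pass at any size. These 9 smaller changes were less stable: 6 kept an adjusted p under 0.05 with the animal as a replicate block (Slc25a4, Slc25a20 and Slc25a33 did not), and 2, Slc25a4 and Slc25a40, kept it with library totals in place of TMM. At that level without a fold limit, 11.6% of all genes were higher and 12.8% lower.

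**Figure D1:**
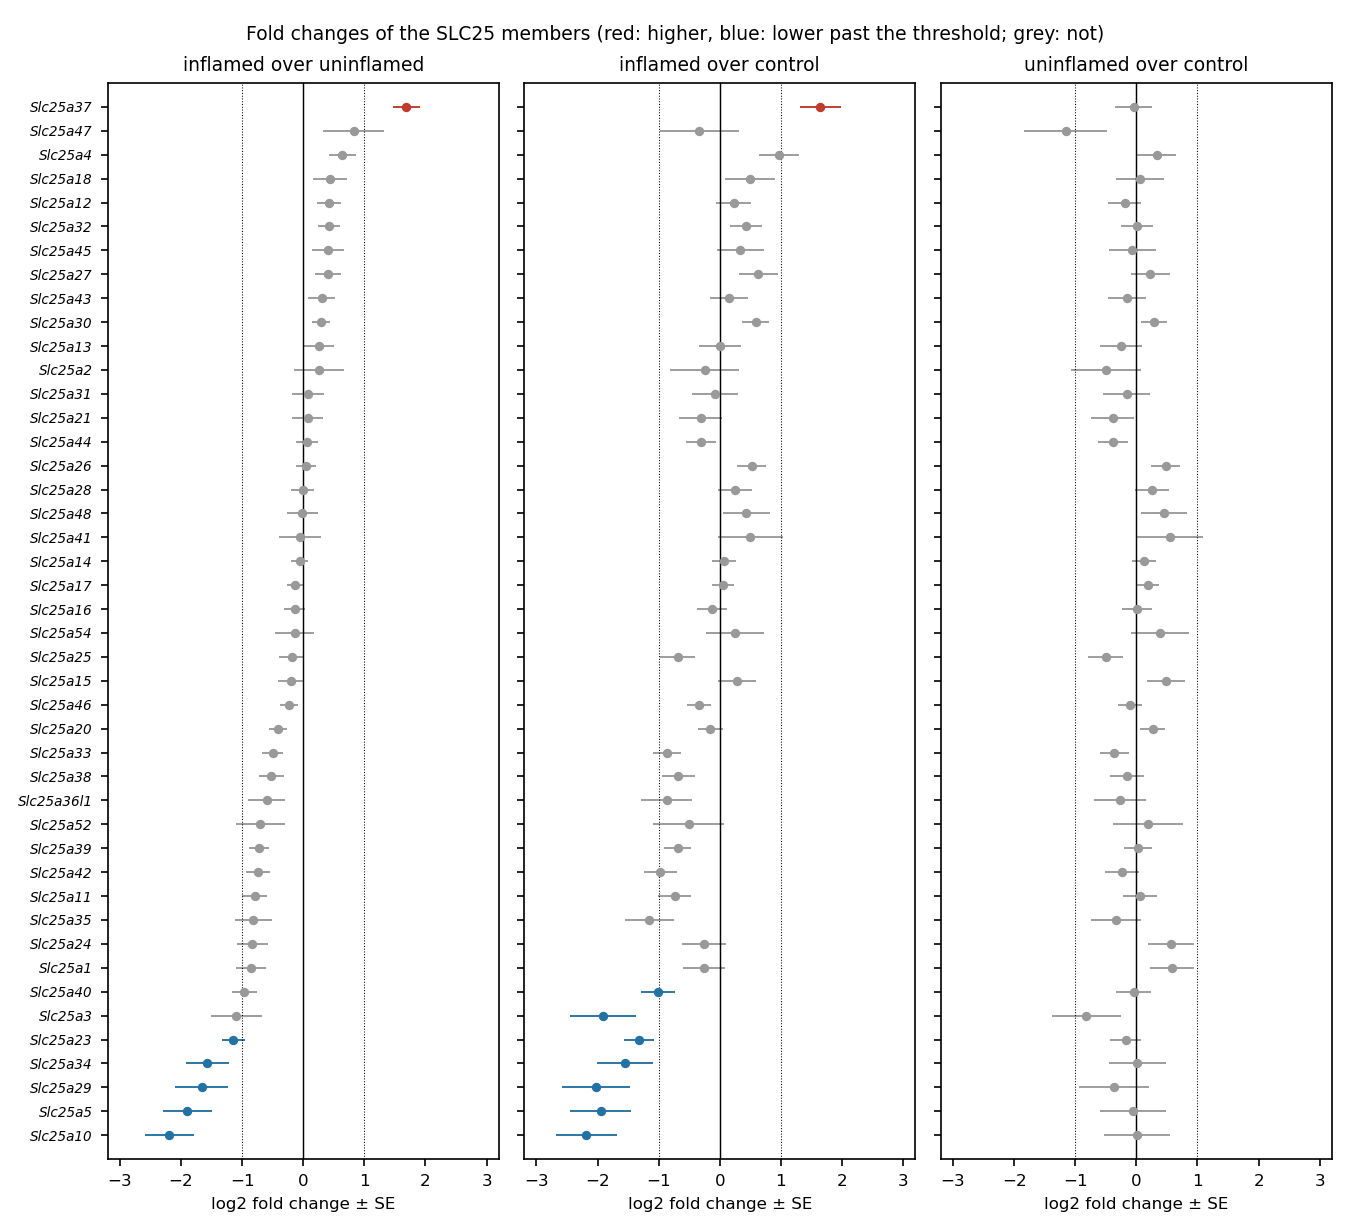
Log2 fold changes of 44 of the 45 members tested in I-UI, I-C and UI-C (x axis, with standard errors as bars; dotted lines mark 2-fold), ordered by I-UI. Slc25a37 is the 1 member past the threshold upward in the left and middle panels, 5 and 7 members pass downward there, and none passes in UI-C.

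The iron carriers moved apart. Slc25a37 had 15.4, 37.3, 28.5, 20.2, 34.6 and 35.4 CPM in the inflamed regions of animals 218 to 223, 7.80, 8.96, 10.4, 7.58, 11.1 and 7.15 CPM in their uninflamed regions, and 8.84 and 9.44 CPM in the controls. Every inflamed library lay above every uninflamed and control library. The log2 fold change was 1.69 ± 0.22 (SE) in I-UI (edgeR adjusted p = 0.000179) and 1.65 ± 0.33 in I-C (edgeR adjusted p = 0.00474). Its paralog Slc25a28, mitoferrin 2, averaged 11.9 ± 2.1 CPM in inflamed and 11.9 ± 3.2 CPM in uninflamed regions (SD, n = 6 each) and 9.99 ± 0.41 CPM in controls (SD, n = 2). Its libraries overlapped, with a log2 fold change of -0.01 ± 0.19 in I-UI (edgeR adjusted p = 0.986).

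Mitoferrin 1 is best known as the iron importer of erythroid precursors, and mitoferrin 2 as that of other tissues. Of the 6 erythroid genes in the table, the 3 globins Hbb, Hba1 and Hba2 were higher in I-UI, while Alas2, Epb42 and Slc4a1 did not pass. The 6 genes summed to 46.6 to 321 CPM in inflamed regions, 30.6 to 44.2 CPM in uninflamed regions and 41.8 and 60.7 CPM in the controls. The inflamed region of animal 218 had the lowest Slc25a37 and the lowest erythroid sum of the 6, and that of animal 220 had the highest erythroid sum but only the fourth highest Slc25a37. The neutrophil sum was lowest in the inflamed regions of animals 221 (443 CPM) and 218 (563 CPM), which also had the lowest Slc25a37 of the inflamed group. It was highest in that of animal 220 (2219 CPM), which had only the fourth highest Slc25a37. The inflamed region of animal 223 had a neutrophil sum of 1060 CPM but the next to highest Slc25a37. Slc25a37 is itself in the neutrophil signature that the study used. The part of red or white blood cells in its level was not tested.

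The ADP/ATP carriers, which exchange cytosolic ADP for matrix ATP, differed in direction, although the change of Slc25a4 was small and its call depended on the fit. Slc25a5, carrier 2 of the exchange and the form of dividing and epithelial cells, had 128, 101, 53.8, 301, 113 and 68.0 CPM in the inflamed regions of animals 218 to 223, 294, 319, 561, 565, 387 and 717 CPM in their uninflamed regions, and 655 and 328 CPM in the controls. It was lower in the inflamed region of 6 of 6 animals, and the groups overlapped only through inflamed library 221 and uninflamed library 218. The log2 fold change was -1.89 ± 0.40 in I-UI (edgeR adjusted p = 0.00318) and -1.95 ± 0.50 in I-C (edgeR adjusted p = 0.0159). Slc25a4, carrier 1 and the form of heart and muscle, had 48.7, 76.2, 94.4, 45.3, 80.3 and 81.4 CPM in inflamed regions, 45.7, 37.6, 38.0, 47.4, 34.2 and 70.9 CPM in uninflamed regions, and 41.7 and 30.8 CPM in controls. It was higher in the inflamed region of 5 of 6 animals, by 0.64 ± 0.22 on the log2 scale (edgeR adjusted p = 0.0457), less than 2-fold, and the groups overlapped. This adjusted p was kept in 7 of 17 alternatives. With the animal as a replicate block it was 0.0811, in edgeR's exactTest 0.0586, and without animals 219, 220 or 222 it was 0.133, 0.165 and 0.157. In I-C the difference was 0.97 ± 0.33 (edgeR adjusted p = 0.0557). Slc25a31, the testis form, averaged 2.05 CPM in inflamed and 1.98 CPM in uninflamed regions.

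The ratio of Slc25a4 to Slc25a5 reads, taken within a library after adding 1 to each count and so free of the scaling between libraries, was 0.381, 0.758, 1.75, 0.151, 0.710 and 1.20 in the inflamed regions of animals 218 to 223, 0.156, 0.118, 0.0680, 0.0840, 0.0886 and 0.0991 in their uninflamed regions, and 0.0638 and 0.0942 in the controls. It was higher in the inflamed region of 6 of 6 animals, on average 6.42-fold. Over 8 pairs of related members compared in this way, a two-sided exact sign-flip permutation test over the 6 animals gave p = 0.03125, the smallest it can give, and 0.0625 after adjustment over the 8 pairs. The smooth muscle sum (9 genes, 6 of them lower in I-UI) was 1198 to 4212 CPM in inflamed regions, 3786 to 11263 CPM in uninflamed regions and 5280 and 6009 CPM in controls. Uninflamed library 223 had the highest Slc25a4 and the highest smooth muscle sum of its group. Inflamed library 223 had the highest smooth muscle sum of the inflamed regions and their next to highest Slc25a4. By contrast, inflamed library 220 had their highest Slc25a4 but their next to lowest smooth muscle sum (2262 CPM). Inflamed library 221 had their lowest Slc25a4 with a smooth muscle sum of 3485 CPM. The part of muscle in the Slc25a4 level was not tested.

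**Figure D2:**
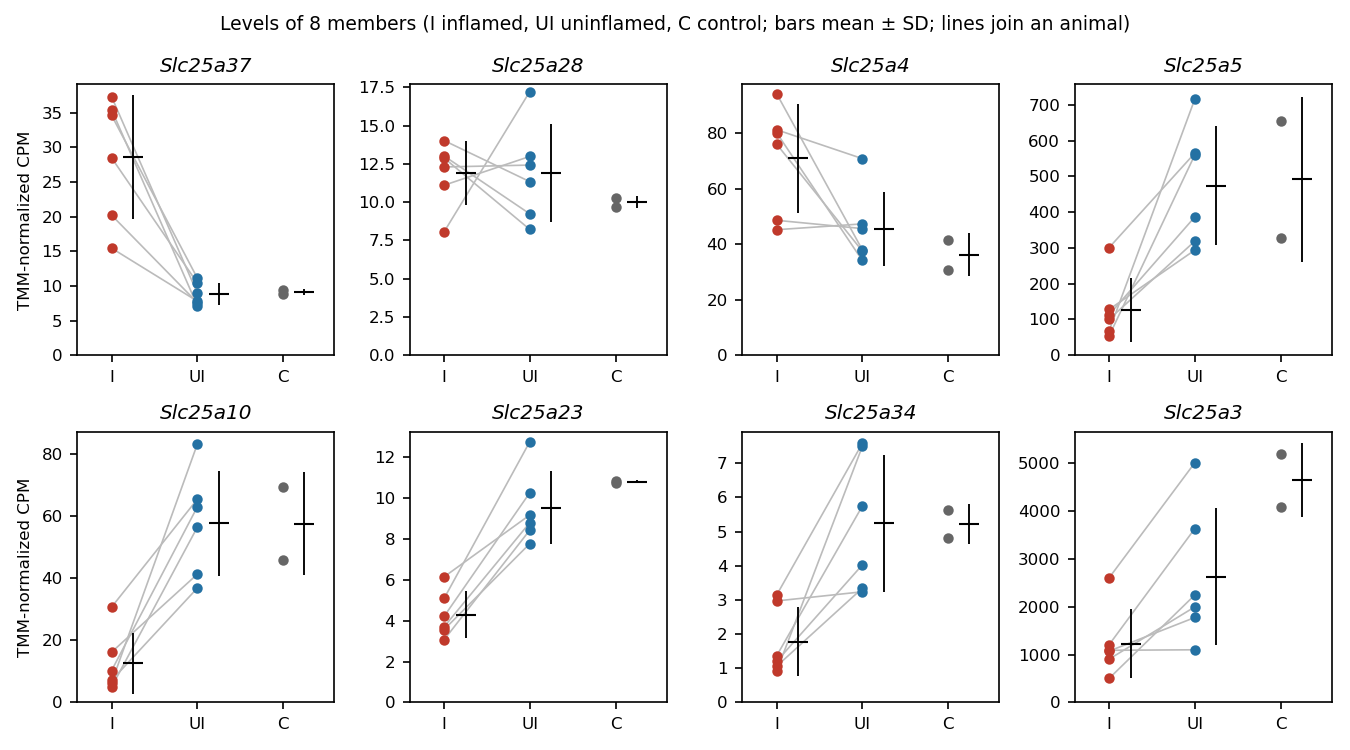
TMM-normalized CPM (y axis, from 0) of 8 members in inflamed (I, red), uninflamed (UI, blue) and control (C, grey) libraries. Each point is 1 library, grey lines join the regions of 1 animal, and black bars give mean ± SD. Slc25a37 is higher and Slc25a5, Slc25a10, Slc25a23, Slc25a34 and Slc25a3 are lower in the inflamed region of all 6 animals, while Slc25a28 overlaps.

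The 250 bases before the annotated start of these genes are shown for the ADP/ATP pair, whose members differed in direction, and for Slc25a10 and Slc25a23, the carriers that fell with no overlap of inflamed and uninflamed libraries and reached at least 5 CPM. They are RefSeq sequences of build GRCr8, a later build than that of the counts, read 5′ to 3′ on the gene's strand. Capitals mark GC boxes (GGGCGG) and CCAAT boxes on either strand.
Slc25a5 (chrX:120897366-120897615, plus strand): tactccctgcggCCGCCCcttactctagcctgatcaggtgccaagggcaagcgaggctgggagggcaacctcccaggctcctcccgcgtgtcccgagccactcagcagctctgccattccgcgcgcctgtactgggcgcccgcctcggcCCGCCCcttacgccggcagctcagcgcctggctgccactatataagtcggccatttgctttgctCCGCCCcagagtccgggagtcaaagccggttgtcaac
Slc25a4 (chr16:52805271-52805520, plus strand): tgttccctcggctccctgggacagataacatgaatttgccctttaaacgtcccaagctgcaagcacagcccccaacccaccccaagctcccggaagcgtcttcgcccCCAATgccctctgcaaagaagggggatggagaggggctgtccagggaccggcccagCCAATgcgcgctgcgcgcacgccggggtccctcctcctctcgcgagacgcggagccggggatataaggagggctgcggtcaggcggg
Slc25a10 (chr10:106264146-106264395, plus strand): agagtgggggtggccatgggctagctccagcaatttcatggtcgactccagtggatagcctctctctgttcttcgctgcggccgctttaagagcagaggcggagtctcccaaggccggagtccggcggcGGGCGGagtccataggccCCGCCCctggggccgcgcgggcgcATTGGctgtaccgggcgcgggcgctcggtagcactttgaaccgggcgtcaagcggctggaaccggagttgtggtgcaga
Slc25a23 (chr9:1985366-1985615, minus strand): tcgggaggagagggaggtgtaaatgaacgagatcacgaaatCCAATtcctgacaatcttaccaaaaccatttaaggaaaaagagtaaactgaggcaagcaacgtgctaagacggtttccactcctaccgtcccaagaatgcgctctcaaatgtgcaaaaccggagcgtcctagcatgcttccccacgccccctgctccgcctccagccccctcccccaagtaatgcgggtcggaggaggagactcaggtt

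Slc25a5 held GC boxes and no CCAAT box in this window, Slc25a4 held CCAAT boxes and no GC box, Slc25a10 held both kinds and Slc25a23 a single CCAAT box. Of the 46 members, 38 had such a sequence. A GC box was found in 21 of the 38 (55.3%), against 30.5% of all 33469 promoters of the same length, and a CCAAT box also in 21 (55.3%), against 34.0%. The member promoters had a median GC content of 57.6%, against 51.2% for all. The string TATAAA was in 2 of the 38 (5.26%, against 12.9% of all), TTTATG, a core of CDX sites, in 7 (18.4%, against 11.4%), GCATGCGC, a core of NRF1 sites, in 2 (5.26%, against 2.20%) and CCGGAAGT, an ETS site, in 2 (5.26%, against 3.10%). The strings TCAAGGTCA (ERR) and CAAAGTCCA (HNF4A) were in 0 of the 38, against 0.388% and 0.338% of all promoters. None of these strings contains another. All were searched on both strands, and a match is a run of letters, not a binding site.

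Phosphate for ATP synthesis enters through Slc25a3. It had 2602, 1089, 502, 904, 1072 and 1205 CPM in the inflamed regions of animals 218 to 223, 5006, 1099, 2245, 1996, 1774 and 3631 CPM in their uninflamed regions, and 4090 and 5182 CPM in the controls. All inflamed libraries lay below both controls, and the log2 fold change in I-C was -1.92 ± 0.54 (edgeR adjusted p = 0.0249). In I-UI it was lower in 6 of 6 animals, although the regions of animal 219 hardly differed, but the groups overlapped and the log2 difference of -1.10 ± 0.42 did not pass (edgeR adjusted p = 0.0696). With the animal as a replicate block the same difference passed (edgeR adjusted p = 0.0232), as it did in edgeR's exactTest (0.0219), in DESeq2 (0.0232) and without animal 218 (0.0147). Slc25a3 is named here after its values were seen. In the GRCr8 annotation a small nucleolar RNA gene, Snora53, lies within it, and since the strand setting of the counting was not given, reads of one cannot be told from those of the other.

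The calcium-regulated ATP-Mg/phosphate carriers set the adenine nucleotide pool of the matrix. Slc25a23 had 3.07, 3.56, 4.21, 6.15, 5.09 and 3.70 CPM in inflamed regions, 8.44, 7.77, 10.3, 9.18, 12.8 and 8.80 CPM in uninflamed regions, and 10.9 and 10.8 CPM in controls. No inflamed library reached the lowest uninflamed or control library. The log2 fold change was -1.14 ± 0.19 in I-UI (edgeR adjusted p = 0.000831) and -1.32 ± 0.25 in I-C (edgeR adjusted p = 0.0034). Slc25a24 was lower by a smaller amount, -0.83 ± 0.26 (edgeR adjusted p = 0.029), with 17.4 to 67.8 CPM in inflamed and 48.9 to 73.8 CPM in uninflamed regions. Slc25a25 averaged 12.03 ± 2.31 CPM in inflamed and 13.68 ± 4.33 CPM in uninflamed regions (SD, n = 6 each) and did not pass (edgeR adjusted p = 0.542). The ratio of Slc25a25 to Slc25a23 was higher in the inflamed region of 6 of 6 animals, on average 2.00-fold (exact sign-flip p = 0.03125, adjusted p = 0.0625). That of Slc25a24 to Slc25a23 was higher in 4 of 6, on average 1.15-fold (exact sign-flip p = 0.1875, adjusted p = 0.25).

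Among the carriers of carboxylates and fatty acids, 4 of 5 were lower in I-UI at an adjusted p under 0.05, against 12.8% of all genes. Of these 4, 1, Slc25a10, was lower by at least 2-fold. The smaller falls kept their adjusted p in 15 (Slc25a11), 12 (Slc25a1) and 5 (Slc25a20) of 17 alternatives. With library totals in place of TMM, Slc25a11, Slc25a1 and Slc25a20 all lost it. Slc25a10 exchanges malate and succinate for phosphate. It had 7.09, 16.2, 4.95, 30.7, 10.2 and 6.37 CPM in the inflamed regions of animals 218 to 223, 36.8, 41.2, 56.3, 65.4, 62.9 and 83.1 CPM in their uninflamed regions, and 69.2 and 45.8 CPM in the controls. All inflamed libraries were below all others, and this was the largest fall of any member in I-UI, -2.19 ± 0.40 on the log2 scale (edgeR adjusted p = 0.00157), as in I-C, -2.19 ± 0.50 (edgeR adjusted p = 0.00955). Slc25a11, the oxoglutarate/malate carrier of the malate-aspartate shuttle, fell by less, -0.79 ± 0.20 (edgeR adjusted p = 0.00942), with 17.3 to 30.0 CPM in inflamed and 21.0 to 47.9 CPM in uninflamed regions. The ratio of Slc25a10 to Slc25a11 was 0.291 to 1.02 in inflamed regions, 1.29 to 1.74 in uninflamed regions and 1.47 and 1.63 in controls, and was lower in the inflamed region of 6 of 6 animals (exact sign-flip p = 0.03125, adjusted p = 0.0625). Slc25a1, the citrate carrier that feeds fatty acid synthesis, had a log2 fold change of -0.85, and Slc25a20, which brings acylcarnitines in for oxidation, of -0.42 (edgeR adjusted p = 0.0206 and 0.0486). Slc25a21, the oxodicarboxylate carrier, stood at 0.07 and did not pass.

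Of the 10 amino acid and glutathione carriers tested, 3 were lower in I-UI at an adjusted p under 0.05, against 12.8% of all genes. Slc25a29 had 3.92, 3.56, 1.98, 11.6, 4.31 and 2.18 CPM in inflamed regions, 10.3, 5.40, 15.5, 15.1, 16.1 and 25.4 CPM in uninflamed regions, and 24.1 and 13.6 CPM in controls. Inflamed library 221 lay within the uninflamed range, and the others were below it. The log2 fold change was -1.66 ± 0.43 in I-UI (edgeR adjusted p = 0.0125) and -2.02 ± 0.55 in I-C (edgeR adjusted p = 0.0223). Without animal 223 the I-UI difference of -1.28 no longer passed (edgeR adjusted p = 0.0665). The paralogs Slc25a39 and Slc25a40, which carry glutathione into the matrix, were lower together, by -0.72 ± 0.16 and -0.97 ± 0.20 on the log2 scale in I-UI (edgeR adjusted p = 0.00497 and 0.00327), in 6 of 6 animals each. Their ratio was higher in 4 of 6 animals, on average 1.19-fold (exact sign-flip p = 0.125, adjusted p = 0.2). In I-C, Slc25a40 passed at -1.01 ± 0.27 (edgeR adjusted p = 0.0199).

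The aspartate/glutamate carriers, which drive the malate-aspartate shuttle, did not pass in any comparison. Slc25a12 (aralar) was higher in the inflamed region of 6 of 6 animals, with 32.1 to 73.2 CPM against 24.5 to 33.7 CPM in uninflamed regions, but the difference of 0.42 ± 0.20 on the log2 scale did not pass (edgeR adjusted p = 0.135). Slc25a13 (citrin) had 662 to 1177 CPM in inflamed regions, 558 to 1258 CPM in uninflamed regions and 877 and 897 CPM in controls. In the GRCr8 annotation an snRNA gene, a pseudogene and Rpl31l14 lie within the bounds of Slc25a13, and their reads cannot be told apart from its own. The Slc25a12 to Slc25a13 ratio was higher in 2 of 6 animals (exact sign-flip p = 0.906, adjusted p = 0.906). Slc25a18, a glutamate carrier, averaged 3.24 CPM in inflamed and 2.39 CPM in uninflamed regions and did not pass. The ratio of Slc25a22 to it rests on 1 to 8 Slc25a22 reads per library and was not read further (exact sign-flip p = 0.656, adjusted p = 0.75).

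**Figure D3:**
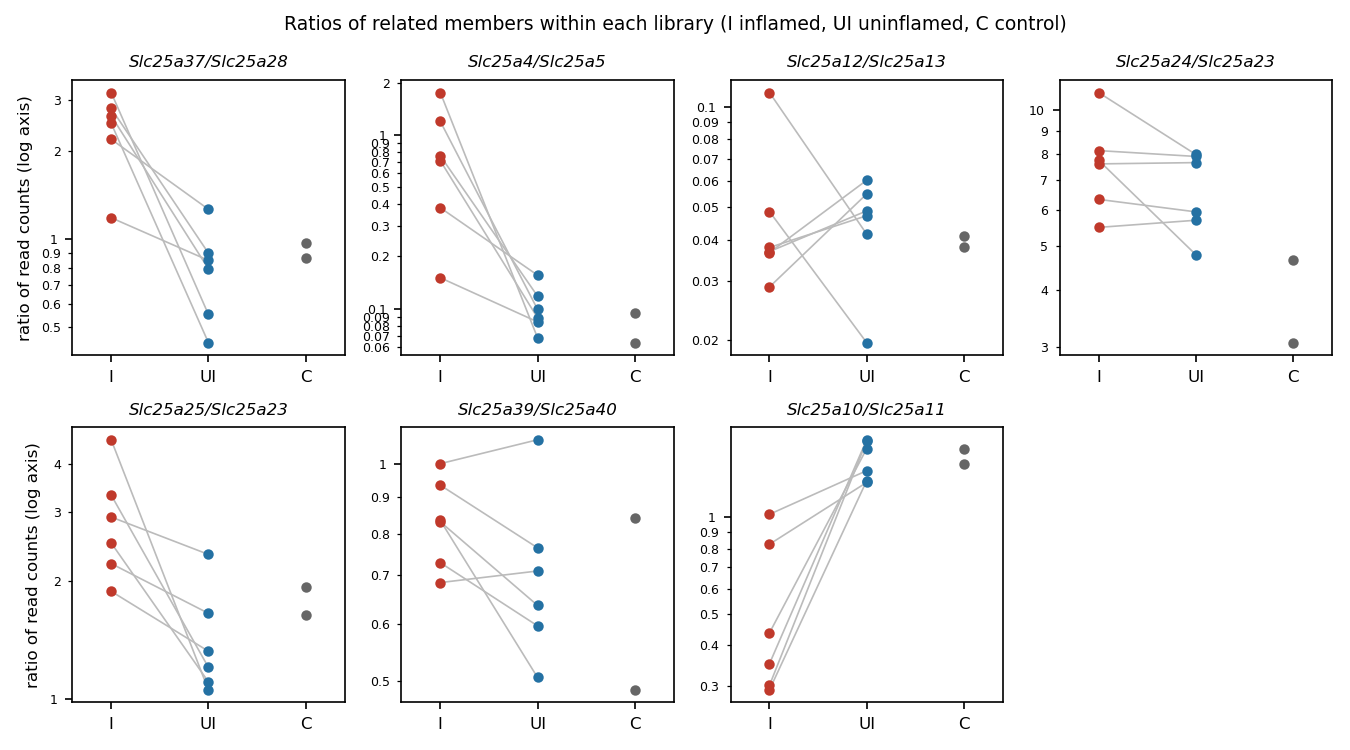
Ratios of read counts (1 added to each) between related members within each library (y axis, log scale) for 7 pairs, in inflamed (I, red), uninflamed (UI, blue) and control (C, grey) libraries, with lines joining the regions of 1 animal. The Slc25a37/Slc25a28, Slc25a4/Slc25a5 and Slc25a25/Slc25a23 ratios are higher and the Slc25a10/Slc25a11 ratio is lower in the inflamed region of 6 of 6 animals.

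The Slc25a37 to Slc25a28 ratio was 1.19, 2.65, 2.20, 2.496, 2.81 and 3.18 in the inflamed regions of animals 218 to 223, 0.847, 0.792, 1.27, 0.443, 0.897 and 0.553 in their uninflamed regions, and 0.861 and 0.973 in the controls. It was higher in 6 of 6 animals, on average 3.06-fold (exact sign-flip p = 0.03125, adjusted p = 0.0625). Inflamed library 218 lay just below uninflamed library 220, and the other inflamed libraries were above all uninflamed ones. When the 6 inflamed and 6 uninflamed libraries were compared without pairing, the 4 ratios with all animals in 1 direction had adjusted p-values of 0.0115 to 0.013 in a two-sided exact permutation test. That test treats the 2 regions of an animal as independent, which they are not. In the paired sign-flip test these ratios did not pass after adjustment (adjusted p = 0.0625).

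Slc25a34 had few reads, with 1.06, 2.97, 1.36, 3.14, 1.20 and 0.910 CPM in inflamed regions, 3.34, 3.24, 5.75, 7.58, 4.03 and 7.49 CPM in uninflamed regions, and 4.80 and 5.64 CPM in controls. The inflamed libraries were below the others, with only a narrow gap between inflamed library 221 and uninflamed library 219. The log2 fold change was -1.57 ± 0.35 in I-UI (edgeR adjusted p = 0.00448) and -1.56 ± 0.46 in I-C (edgeR adjusted p = 0.0303). Over all members, inflamed and uninflamed libraries did not overlap for 1 that was higher (Slc25a37) and 3 that were lower (Slc25a10, Slc25a23 and Slc25a34), against 4.32% and 5.20% of all genes.

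Of 8 carriers of nucleotides and cofactors tested, 2 were lower at an adjusted p under 0.05, against 12.8% of all genes, and neither by 2-fold. They were Slc25a42, which carries coenzyme A, at -0.74 and Slc25a33, which carries pyrimidine nucleotides, at -0.50 on the log2 scale. For Slc25a33 the adjusted p of 0.0443 was 0.0841 with the replicate block and 0.115 in edgeR's exactTest. Slc25a32, the folate carrier, was higher in the inflamed region of 6 of 6 animals, by 0.42, and did not pass (edgeR adjusted p = 0.104). None of the 3 uncoupling protein-like members, Slc25a14, Slc25a27 and Slc25a30, passed, with log2 fold changes of -0.06 to 0.40. Slc25a38, which supplies glycine for heme synthesis, stood at -0.52 (edgeR adjusted p = 0.0677), Slc25a35 at -0.81 (0.0605) and Slc25a46, an outer membrane protein, at -0.23 (0.244). Other members, Slc25a2, Slc25a15, Slc25a16, Slc25a17, Slc25a26, Slc25a36l1, Slc25a41, Slc25a43, Slc25a44, Slc25a45, Slc25a47, Slc25a48, Slc25a52 and Slc25a54, did not pass in I-UI, with log2 fold changes between that of Slc25a52 (-0.70, edgeR adjusted p = 0.221) and that of Slc25a47 (0.83, edgeR adjusted p = 0.232).

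**Figure D4:**
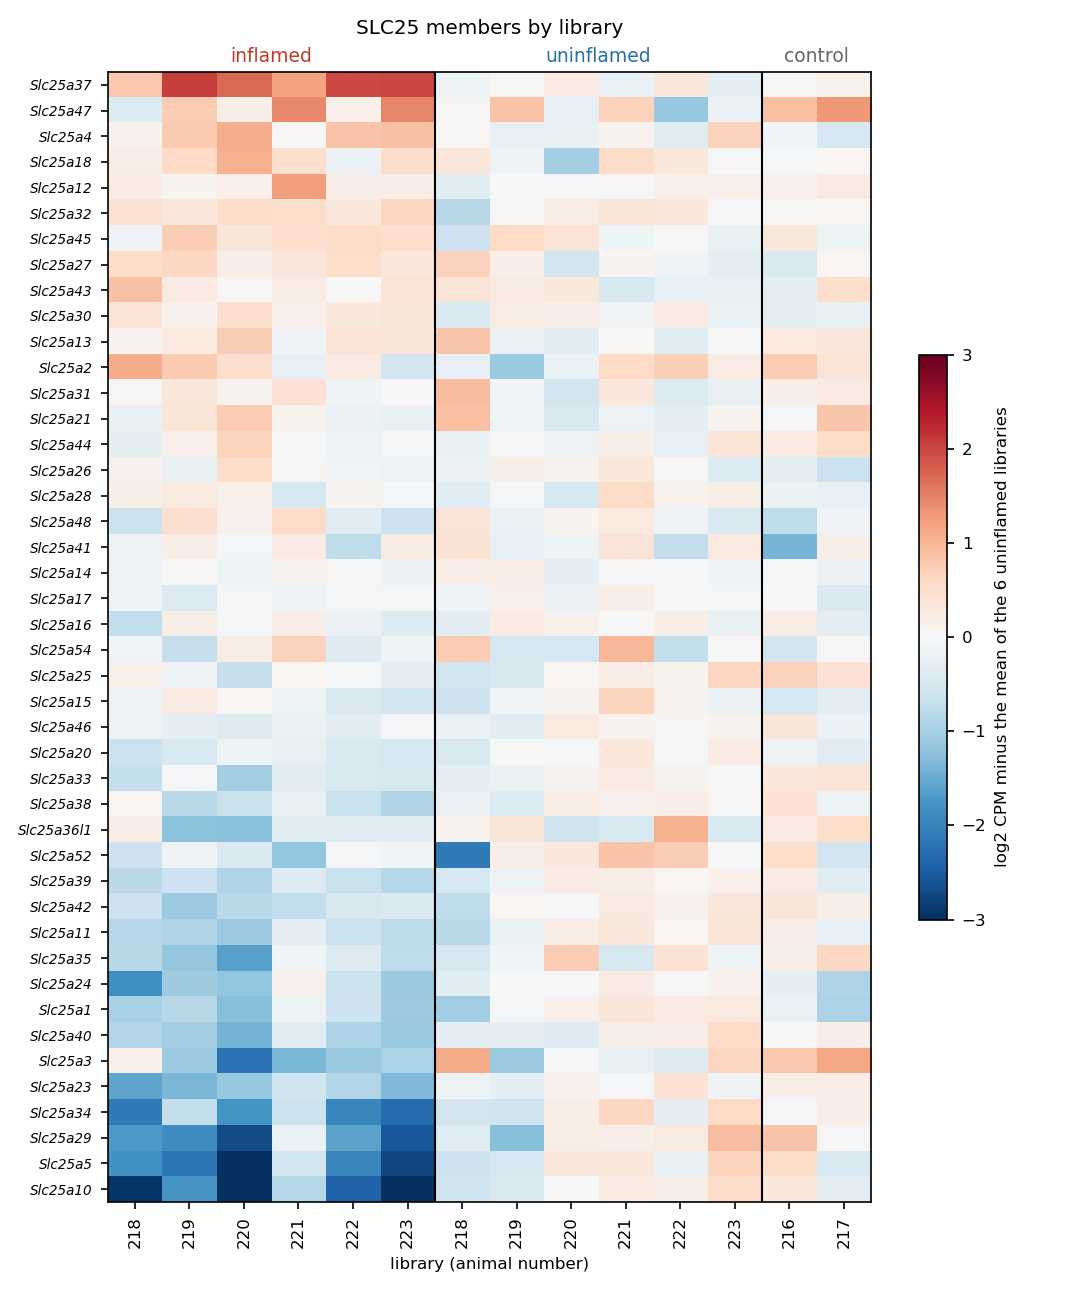
Log2 CPM of 44 of the 45 members tested in each of the 14 libraries, as the difference from the mean of the 6 uninflamed libraries (color, red higher and blue lower), with inflamed libraries on the left, uninflamed in the middle and controls on the right. The lowest rows, Slc25a5 and Slc25a10 among them, are blue in the inflamed libraries and palest in inflamed library 221.

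The inflamed region of animal 221 differed from the other inflamed regions in several of the members that fell. It had the highest level of the group in Slc25a5, Slc25a10, Slc25a23, Slc25a24, Slc25a29, Slc25a34, Slc25a11, Slc25a39 and Slc25a40, and the next to lowest in Slc25a37. It also had an epithelial sum of 5256 CPM, against 242 to 1563 CPM in the other inflamed regions, and the lowest neutrophil sum. Without animal 221, the members lower past the threshold in I-UI numbered 8, with Slc25a24, Slc25a35 and Slc25a40 added, and without animal 223 they numbered 4. The lowest epithelial sums of the inflamed group, 242 and 276 CPM, were in animals 220 and 223, whose inflamed regions also had the lowest Slc25a5, Slc25a10 and Slc25a29. This did not hold for the other members that fell past the threshold. Slc25a23 was lowest in animals 218 (3.07 CPM) and 219 (3.56 CPM), and Slc25a34 in animals 223 (0.910 CPM) and 218 (1.06 CPM). The part of epithelial loss in the falls of these carriers was not tested.

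In I-C, 1 member rose (Slc25a37) and 7 fell, the 5 of I-UI with Slc25a3 and Slc25a40, against 5.93% of all genes higher and 7.79% lower. The counts rest on both controls. Without control 216 no member rose and 1 fell (Slc25a23), and without control 217 none rose and 3 fell (Slc25a5, Slc25a10 and Slc25a23). Either omission leaves 1 control, which is then assumed to vary like the other groups, and several lost calls kept their size: Slc25a37 stood at 1.60 without 216 and 1.68 without 217, and Slc25a3 at -2.08 and -1.75, on the log2 scale. Without animal 220 the falls numbered 4, and without animal 218 or 221 Slc25a4 joined Slc25a37 as a second riser. Inflamed and control libraries did not overlap for 6 members that were higher and 14 that were lower, against 14% and 14.3% of all genes. The calls also rest on the scaling. With library totals alone, which moved the median log2 fold change of all genes to 0.28 in I-UI, 0.72 in I-C and 0.43 in UI-C (0.04, 0.10 and 0.05 with TMM), 5 members rose in I-C (Slc25a4, Slc25a26, Slc25a27, Slc25a30 and Slc25a37) and 1 fell (Slc25a3), while in I-UI 1 rose and 4 fell.

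In UI-C no member passed, against 0% of all genes higher and 0.145% lower. At an unadjusted p under 0.05 there was 1 member in edgeR, and edgeR's exactTest, DESeq2 and limma-voom also passed 0 members. With 2 controls the comparison resolves little. On data simulated from these libraries, 9.84% of genes changed 2-fold and 69.6% of those changed 4-fold were recovered in UI-C, against 27.0% and 88.7% in I-UI. Recovery here meant an adjusted p under 0.05, without the 2-fold limit that the calls also need. Uninflamed and control libraries did not overlap for 0 members that were higher and 3 that were lower (Slc25a33 and Slc25a47 among them), against 5.23% and 6.16% of all genes. The members with the outermost fold changes were Slc25a47 at -1.16 and Slc25a1 at 0.59 on the log2 scale.

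The carriers work with enzymes and import factors on either side of the membrane, and these were counted by the same rule. In I-UI that rule called 6.95% of all genes lower and 6.15% higher. Of 16 tricarboxylic acid cycle enzymes tested, 9 fell and 0 rose in I-UI, the smallest adjusted p-values being those of Sdhd and Idh3B, subunits of succinate dehydrogenase and isocitrate dehydrogenase, at -1.52 ± 0.25 and -1.45 ± 0.24 on the log2 scale (edgeR adjusted p = 0.000749 and 0.000865). Of the 6 enzymes of the malate-aspartate and glycerol phosphate shuttles, 2 fell: Mdh1, cytosolic malate dehydrogenase (-1.25 ± 0.22, edgeR adjusted p = 0.00121), and Gpd1 (-1.66 ± 0.49, edgeR adjusted p = 0.0247). Of 8 genes of the carnitine shuttle and fatty acid oxidation, 1 fell by 2-fold, Cpt2 (-1.08), and Hadhb and Hadha, the subunits of the trifunctional protein, were lower by -0.997 and -0.892 without reaching it (edgeR adjusted p = 0.000696 and 0.00205).

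Among inner membrane carriers with other names, 2 of 11 fell, Mpc1 and Mpc2, which together form the mitochondrial pyruvate carrier, at -1.32 ± 0.22 and -1.003 ± 0.191 (edgeR adjusted p = 0.000878 and 0.00173). Sfxn1, a serine carrier, was higher by 0.66 (edgeR adjusted p = 0.0133). Of 9 genes of calcium uptake and the outer membrane channel VDAC, 3 fell, among them Ccdc109b, an inhibitory subunit of the calcium uniporter (-1.59 ± 0.28, edgeR adjusted p = 0.000998), and Smdt1, its essential regulator (-1.37 ± 0.30, edgeR adjusted p = 0.00414). Of 12 genes of the machinery that imports carriers, 2 fell, Timm8b (-1.11 ± 0.25, edgeR adjusted p = 0.0054) and Timm10, and Tomm22 was lower by -0.71 (edgeR adjusted p = 0.0088). Of 13 iron and heme genes, to which mitoferrin supplies the metal, 0 rose and 0 fell by 2-fold. At an unadjusted p under 0.05 there were 5, and Glrx5 and Iscu, of iron-sulfur cluster assembly, were lower by -0.73 and -0.59 (edgeR adjusted p = 0.00805 and 0.0194). Of 10 regulators of mitochondrial biogenesis, 1 fell, Ppargc1a, a coactivator (-1.70 ± 0.32, edgeR adjusted p = 0.00156), and Tfam, which maintains mitochondrial DNA, was lower by -0.83 (edgeR adjusted p = 0.00708). No gene of these 8 lists rose past the threshold in I-UI, against 6.15% of all genes. The falls were 10% of the biogenesis, 12.5% of the carnitine, 16.7% of the import and 18.2% of the other inner membrane carrier genes. Each of these shares is 1 or 2 genes, against 6.95% of all genes.

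**Figure D5:**
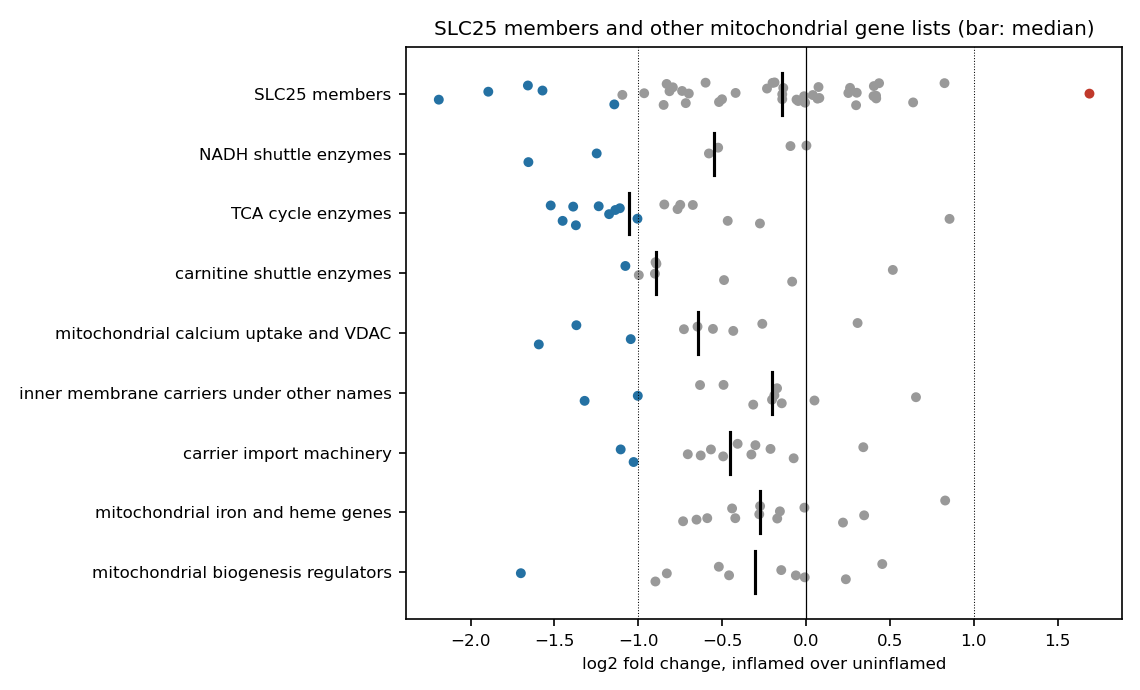
Log2 fold changes in I-UI (x axis; dotted lines mark 2-fold) of the SLC25 members (44 of the 45 tested) and of 8 lists of other mitochondrial genes, 1 point per gene, red where higher and blue where lower past the threshold, with the median as a black bar. Points past the threshold are blue in every list that has any, except for Slc25a37 among the members.

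Counts of some members are uncertain because a read was allowed up to 10 places. The GRCr8 annotation lists 9 pseudogenes of Slc25a5 and 8 of Slc25a39, and Slc25a24 overlaps Slc25a54. Of the 46 members, 25 overlap another annotated gene.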

How the data were processed

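Total RNA depleted of ribosomal RNA was sequenced with 50-base SOLiD reads in 14 libraries. The deposited values are raw read counts per gene: the authors used CLC Genomics Workbench 7.5.1 to align reads against Rnor_5.0 with annotation from Ensembl 77, allowing 2 mismatches, fractions of 0.8 for length and for similarity, and 10 places per read, and dropped ribosomal RNA genes. Strand setting and low-count filter are not given in the sources used here. The table gives symbols without coordinates for these genes.

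Counts were tested in R 4.3.3 with edgeR 4.0.16 (filterByExpr with a minimum count of 10, TMM, robust quasi-likelihood fit, all 14 libraries in 1 fit, prior count 0.125), with Benjamini-Hochberg adjustment over 18678 genes. The SE is the absolute log2 fold change over the square root of F. P-values of the main fit measure the spread between libraries within groups, and the controls have 2 libraries. In I-UI this fit treats the 2 regions of an animal as independent. The fit with the replicate block compares the regions within animals. Ratios within a library used counts plus 1 and were tested over animals by sign flips. Titles give both regions of an animal the same number, so these were taken as paired. Own-animal correlations of deviations were -0.121 to 0.185, and the own animal was the best match in 4 of 6. The misses were reciprocal: inflamed region 218 matched uninflamed region 220 best, and inflamed region 220 matched uninflamed region 218 best. Whether labels were exchanged was not tested. Counts of animals in 1 direction, the sign-flip tests and the block rest on the pairing by title. The main fit has no animal block, as in the study's methods. Alternatives were DESeq2 1.42.0, limma 3.58.1 (voom), edgeR's exactTest, other scalings and filters, the block, and leaving out each animal. The procedure was tested on simulated data.

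Members described with all values were those past the threshold in I-UI, up to 6 in each direction, with Slc25a4 and Slc25a3. Other members of the related pairs averaging at least 5 CPM are given by mean, range or fold change. In each partner list the genes with the smallest adjusted p are named, with Cpt2, Timm10 and Sfxn1 added after their values were seen. The members and lists were chosen with earlier results of these data known. The values of 1 member are not reported here, and it is left out of the figures.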

Additional observations from a re-analysis of the deposited data

Results flagged for a closer look

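In 6 of the 34 groups of 6 libraries examined (17 named members, inflamed and uninflamed), the highest library stood apart from the rest by Dixon's criterion. Chance alone meets it in about 1 group in 20 if values are normally distributed and groups independent. Here CPM were used without a log transform and the members share libraries, so that rate is only a rough guide. Among inflamed regions, library 221 stood apart in Slc25a5 (301 CPM, next 128 CPM), in Slc25a29 (11.6 CPM, next 4.31 CPM) and in Slc25a12 (73.2 CPM, next 36.3 CPM). Library 218 stood apart in Slc25a3 (2602 CPM, next 1205 CPM). Among uninflamed regions, library 218 stood apart in Slc25a13 (1258 CPM, next 721 CPM) and library 223 in Slc25a4 (70.9 CPM, next 47.4 CPM). Uninflamed library 218 had the lowest TMM factor of all 14 libraries (0.630), which raises its CPM. As a share of its reads, Slc25a13 was 0.0793%, against 0.0606% to 0.0739% in the other uninflamed libraries. Inflamed library 221 had the highest epithelial sum of its group, and uninflamed library 223 the highest smooth muscle sum of its group (11263 CPM). Their part in these values was not tested.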

How the results depend on the processing

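Of the 6 calls in I-UI, those of Slc25a5, Slc25a10, Slc25a34 and Slc25a37 held in 17 of 17 alternatives, Slc25a29 was lost without animal 223, and Slc25a23 with library totals alone (-0.90), less than 2-fold. With the animal as replicate block, 1 member was higher and 6 were lower in I-UI, with Slc25a3 added. The block changed no other 2-fold call of a member. Of the 9 changes under 2-fold at an adjusted p under 0.05, 6 kept it under the block (Slc25a4 had 0.0811 and Slc25a33 0.0841), 2 with library totals and 4 to 9 with 1 animal left out. Slc25a40 kept it in 17 of 17 alternatives, Slc25a39 in 16, Slc25a4 and Slc25a33 in 7 each and Slc25a20 in 5. Each of the 8 calls in I-C was lost in at least 1 of 16 alternatives, and the calls were kept in 9 (Slc25a34 and Slc25a40) to 15 (Slc25a23) of them. In I-C, library totals gave 5 higher and 1 lower. Leaving out 1 animal at a time, the members lower in I-UI numbered 4 to 8, those lower in I-C 1 to 8 and those higher in I-C 0 to 2. Slc25a28 in I-UI had values of 0.22 with library totals, 0.002 with no filter and 0.014 with the replicate block, and Slc25a25 0.048 with library totals. Slc25a28 ran from -0.12 to 0.20 over the omissions, with 0.197 without animal 221 and 0.041 without animal 223. Without pairing (no replicate block) the ratio differences stayed at 1.61 (Slc25a37/Slc25a28), 2.68 (Slc25a4/Slc25a5), 1.00 (Slc25a25/Slc25a23) and -1.67 (Slc25a10/Slc25a11) on the log2 scale and passed an exact permutation test, which treats the 2 regions of an animal as independent. In the paired exact test, which cannot go below p = 0.03125, none of these differences passed after adjustment. With 4 of 8 pairs at that smallest p, none could have passed, whatever its size. Leaving out 1 animal at a time, the Slc25a12/Slc25a13 difference ran from -0.213 (without 221; -0.192 without 218) to 0.255, and the Slc25a22/Slc25a18 difference from -0.817 to 0.08 (without 223; 0.006 without 220). The causes were not tested. The pair of Slc25a33 and Slc25a36 was not run, since no row is named Slc25a36. The depth limits members of few reads such as Slc25a22, Slc25a34 and Slc25a47.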
